A study of Mus musculus with 4 samples.

Results

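The MHC class II presentation genes make up the machinery with which a cell loads peptides onto class II molecules and shows them to CD4 T cells, and 10 of them were examined in the LSK cells of *Pich*-KO and *Pich*-WT fetal livers. They were picked by gene symbol from the 39186 genes of the deposited table, with earlier results of this same comparison already known, so their difference between the groups is described here without a test of its own. The genes were *H2-Aa*, *H2-Ab1*, *H2-Eb1*, *Cd74*, *Ciita*, *H2-DMa*, *H2-DMb1*, *H2-DMb2*, *H2-Oa* and *H2-Ob*. All 10 were in the table, and all 10 passed the filter on low values, a mean of at least 1, with at least 10 reads in every sample.

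LSK cells are the Lin-Sca-1+c-Kit+ cells in which hematopoietic stem and multipotent progenitor cells are enriched. They were sorted from C57BL/6 fetal livers of both genotypes, and RNA sequencing covered 2 samples of each. PICH is a DNA translocase that acts on ultrafine DNA bridges in mitosis, encoded on the X chromosome by the gene listed as *Ercc6l*. The *Pich*-KO embryos carried a small constitutive deletion in exon 2, made with TALENs in a line kept through *Pich*+/- females and WT males, so that every cell of the embryo, and not only the blood, lacked the intact gene, and the *Pich*-WT embryos carried no engineered allele. The study's sorting methods state an age of E14.5 for the fetal livers, and whether a sample pooled several embryos is not given in the sources used here. P-values therefore measure only the spread between these samples. The lineage antibodies the study lists were against CD4, CD8, Gr-1, B220 and Ter119, and no macrophage antigen is among them.

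A class II molecule is a pair of an alpha and a beta chain. The invariant chain, encoded by *Cd74*, holds the pair in shape and guides it to endosomes, where proteases trim it away and H2-DM swaps the last fragment for a peptide, while H2-DO restrains H2-DM. The genes of the class II chains and the invariant chain are switched on together by CIITA, a coactivator that binds no DNA itself. It joins a complex of RFX, CREB and NF-Y factors on the X and Y boxes of these genes' promoters. In adult tissues dendritic cells, macrophages and B cells are the best known carriers of class II.

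The libraries held 14703215 to 20933919 reads on genes. Replicates of a group were not alike within counting error, as the chi-square divided by its degrees of freedom was 17.7 for the *Pich*-KO pair and 9.54 for the *Pich*-WT pair. *Pich*-WT sample 2 had 0 reads on 4 Y-linked genes and 699 reads on *Xist*, against 1607 to 2848 and 4 to 13 reads in the other 3 samples, so sex was not balanced between the groups. The normalized count of *Ercc6l* was 1142 and 1232 in *Pich*-KO against 772 and 661 in *Pich*-WT (log2 difference 0.73, limma, Benjamini-Hochberg adjusted p = 0.00887), and with so small a deletion its mRNA level does not check the labels.

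Promoter sequences are shown first, for genes with wide and with narrow differences between the groups, because the X and Y boxes are the elements through which CIITA acts. RefSeq windows of 300 bases, 250 before and 50 after a start site on GRCm38.p6, were found for 7 of the 10 genes, 8 windows in all. The stretches below run from -130 to 10 relative to the start site, on the gene's own strand, and capitals mark matches to the X box letters AGNNACNNA followed by a Y box ATTGG, to a Y box alone, or to a Y box on the other strand (CCAAT). *H2-Eb1* lies at chr17:34305737-34305876 on the plus strand, *H2-Aa* at chr17:34287814-34287953 on the minus strand, *H2-DMb1* at chr17:34153061-34153200, *H2-DMb2* at chr17:34145119-34145258, *H2-Ob* at chr17:34238775-34238914 and *H2-Oa* at chr17:34092249-34092388, the last 4 on the plus strand.
H2-Eb1: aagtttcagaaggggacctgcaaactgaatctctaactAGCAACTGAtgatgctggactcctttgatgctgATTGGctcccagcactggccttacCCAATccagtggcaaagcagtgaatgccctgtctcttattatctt
H2-Aa: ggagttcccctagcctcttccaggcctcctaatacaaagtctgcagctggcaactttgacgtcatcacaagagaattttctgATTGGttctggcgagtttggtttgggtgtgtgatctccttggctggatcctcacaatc
H2-DMb1: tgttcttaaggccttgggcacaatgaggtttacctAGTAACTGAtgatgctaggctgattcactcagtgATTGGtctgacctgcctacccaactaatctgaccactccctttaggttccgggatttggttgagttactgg
H2-DMb2: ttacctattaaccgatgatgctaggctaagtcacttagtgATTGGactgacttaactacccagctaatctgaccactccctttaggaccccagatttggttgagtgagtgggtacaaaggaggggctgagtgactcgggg
H2-Ob: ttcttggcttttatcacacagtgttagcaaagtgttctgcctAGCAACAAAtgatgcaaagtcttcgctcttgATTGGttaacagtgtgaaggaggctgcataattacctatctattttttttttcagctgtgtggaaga
H2-Oa: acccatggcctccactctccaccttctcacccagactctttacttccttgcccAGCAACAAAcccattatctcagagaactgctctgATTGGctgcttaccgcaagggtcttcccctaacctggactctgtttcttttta

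An X match followed at 10 to 40 bases by a Y box on the same strand was found in 4 of the 8 windows, those of *H2-Eb1*, *H2-DMb1*, *H2-Ob* and *H2-Oa*, against 1.467% of 32851 RefSeq promoter windows of the same length. The pair had a narrow spacing, with 24 bases between X and Y in *H2-Eb1*, 25 in *H2-DMb1* and *H2-Oa*, and 22 in *H2-Ob*, and the X match began 77 to 95 bases before the start site. The *H2-Aa* window held a Y box and no match to these X letters. The letters AGNNACNNA alone are common, in 46.24% of all windows, and ATTGG alone was in 37.41%. A Y box on either strand was present in 7 of the 8 class II windows. Matches to GAAANNGAA, an interferon-type element, were in 0 of the 8 windows against 8.56% of all, and the Ets core GGAAGT was in 1 of the 8 against 23.77%, both counted on either strand. These are letter matches and not measured binding.

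Not every window sat at the start of the deposited gene. The windows of *H2-Oa*, *H2-DMb1*, *H2-Ob*, *H2-Aa* and *H2-Eb1* had a start site within 150 bases of it, and 4 of these 5 held the X and Y pair. The *H2-DMb2* start site was 1942 bases from the deposited start, and the start sites of the 2 *H2-DMa* windows were 12350 and 9664 bases away, so the absence of the pair there does not describe the promoter next to the deposited gene. Between the *H2-DMb1* and *H2-DMb2* windows 84.21% of 247 aligned bases were identical. *H2-Eb1* and *H2-Oa*, both with the pair, had very different readings between the groups, as the levels that follow show.

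The class II chains were far apart between the groups, by 59.9-fold to 222-fold on the means. Values are normalized counts, the reads of a gene divided by the sample's size factor, and log2 differences are *Pich*-KO minus *Pich*-WT on the log2(value + 1) scale with the standard error from limma, a scale that understates the difference of genes with low values. *H2-Aa*, the alpha chain of I-A (chromosome 17, 34282744 to 34287827, minus strand, ENSMUSG00000036594), had 28.4 and 12.5 in *Pich*-KO samples 1 and 2 and 4880 and 3511 in *Pich*-WT samples 1 and 2. Both *Pich*-KO values were a trace of either *Pich*-WT value. The mean was 205-fold higher in *Pich*-WT, with a log2 difference of -7.70 (standard error 0.35). The *Pich*-KO values rest on 26 and 11 reads, against 6244 and 3511 reads in *Pich*-WT.

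*H2-Ab1*, the beta chain that pairs with it (chromosome 17, 34263209 to 34269418, plus strand), had 120.0 and 106 in *Pich*-KO against 8224 and 5306 in *Pich*-WT. The *Pich*-KO samples lay close together and the *Pich*-WT samples differed more from each other, sample 1 being the higher. The *Pich*-WT mean was 59.9-fold higher (log2 difference -5.86, standard error 0.21). *H2-Eb1*, the beta chain of I-E (chromosome 17, 34305877 to 34316199, plus strand), had 10.9 and 12.5 in *Pich*-KO, from 10 and 11 reads, and 3013 and 2187 in *Pich*-WT. The 2 *Pich*-KO values could not be told apart at that depth and lay far under both *Pich*-WT values, 222-fold on the means (log2 difference -7.66, standard error 0.24). Mice of the C57BL/6 strain make no I-E alpha chain, so this beta chain has no partner of its own isotype. The pseudogene listed for that chain, *H2-Ea-ps*, named after its values were seen, had 0 reads in 3 samples and 2 reads in *Pich*-WT sample 2. A further beta gene, *H2-Eb2*, named in the same way, was nearly silent, with 5.45 and 5.68 in *Pich*-KO against 8.60 and 9 in *Pich*-WT.

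Among all 32428 genes tested, *H2-Aa* had the most negative log2 difference and *H2-Eb1* the next. *Cd74* ranked 16, *H2-Ab1* 18, *Ciita* 80 and *H2-DMb1* 400 from that end, while *H2-Ob*, *H2-DMa*, *H2-Oa* and *H2-DMb2* ranked 3427, 5271, 7498 and 11387. The 10 genes thus ran from the negative end of the scale to -0.33 for *H2-DMb2*, the median over all genes tested being 0.02. These ranks are from the limma fit. The order of *H2-Aa* and *H2-Eb1* was not firm, as on the means *H2-Eb1* had the wider gap, 222-fold against 205-fold.

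*Cd74*, the invariant chain (chromosome 18, 60803848 to 60812646, plus strand, ENSMUSG00000024610), had the highest normalized count of the class II presentation genes in *Pich*-WT. In both *Pich*-KO samples it lay under *H2-DMa*, which had 738 and 613 there. *Cd74* had 494 and 109 in *Pich*-KO against 16697 and 12639 in *Pich*-WT, 48.6-fold higher on the means (log2 difference -5.96, standard error 0.57). The *Pich*-KO samples were unlike each other, sample 1 holding 4.53-fold more than sample 2, from 453 against 96 reads. The size of the difference turned on which was used: -7.04 without *Pich*-KO sample 1 and -4.88 without *Pich*-KO sample 2, with both under either *Pich*-WT sample in each case. The microRNA gene *Mir5107*, whose 88 bases lie inside *Cd74* on the same strand, had 0 reads in both *Pich*-KO samples and 12 and 24 reads in *Pich*-WT, and reads of the 2 genes cannot be told apart there.

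*Ciita*, the coactivator (chromosome 16, 10480059 to 10528418, plus strand, ENSMUSG00000022504), had 17.5 and 17.1 in *Pich*-KO, from 16 and 15 reads, and 563 and 389 in *Pich*-WT. The *Pich*-KO samples were alike and both far under the *Pich*-WT samples, by 27.6-fold on the means (log2 difference -4.68, standard error 0.28). The gene *Dexi* overlaps *Ciita* on the opposite strand over 25888 bases, introns included, and the library kit does not mark strand, so reads from shared stretches could go to either. *Dexi* had 65.4 and 21.6 in *Pich*-KO against 391 and 318 in *Pich*-WT (log2 difference -3.19, limma, Benjamini-Hochberg adjusted p = 0.00244).

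The H2-DM genes, whose product loads the peptide, differed from one another. *H2-DMa*, the alpha chain (chromosome 17, 34135182 to 34139101), kept a sizeable level in the mutant samples, with 738 and 613 in *Pich*-KO against 1525 and 1216 in *Pich*-WT. The groups did not overlap, and the means were 2.03-fold apart (log2 difference -1.02, standard error 0.16). *H2-DMb1*, a beta chain (chromosome 17, 34153072 to 34160230), had 96.0 and 94.3 in *Pich*-KO against 1014 and 785 in *Pich*-WT, a 9.45-fold gap (log2 difference -3.22, standard error 0.20). *H2-DMb2*, the other beta chain (chromosome 17, 34143307 to 34151553), had 117 and 169 in *Pich*-KO against 204 and 154 in *Pich*-WT. *H2-DMb2* was the 1 gene of the 10 in which the groups overlapped, as *Pich*-KO sample 2 lay above *Pich*-WT sample 2 (log2 difference -0.33, standard error 0.27).

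The 2 beta genes are near copies. Their longest coding transcripts were identical at 94.59% of 1219 aligned bases in GENCODE M21, and 22.65% of the 50-base words of *H2-DMb1* and 24.76% of those of *H2-DMb2* also occurred in other genes, 369 of them shared by this pair. How the counting treated reads that match both is not stated, so the split of reads between *H2-DMb1* and *H2-DMb2* is uncertain. Of the other 8 genes, *H2-Aa* shared 0.49% of its words and the remaining 7 shared 0.

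The H2-DO genes were low in both groups. *H2-Oa*, the alpha chain (chromosome 17, 34092340 to 34095234), had 67.6 and 55.7 in *Pich*-KO against 117 and 88.0 in *Pich*-WT (log2 difference -0.72, standard error 0.29). *H2-Ob*, the beta chain (chromosome 17, 34238903 to 34245907), had 70.9 and 31.8 in *Pich*-KO against 131 and 119 in *Pich*-WT (log2 difference -1.37, standard error 0.39). Neither gene overlapped between the groups, but the *Pich*-KO samples of *H2-Ob* were 2.23-fold apart, which is nearly as much as the 2.43-fold between the group means. An antisense gene over *H2-Oa*, *BC051537*, held 1 to 4 reads in each sample against 49 to 150 for *H2-Oa*.

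**Figure D1:**
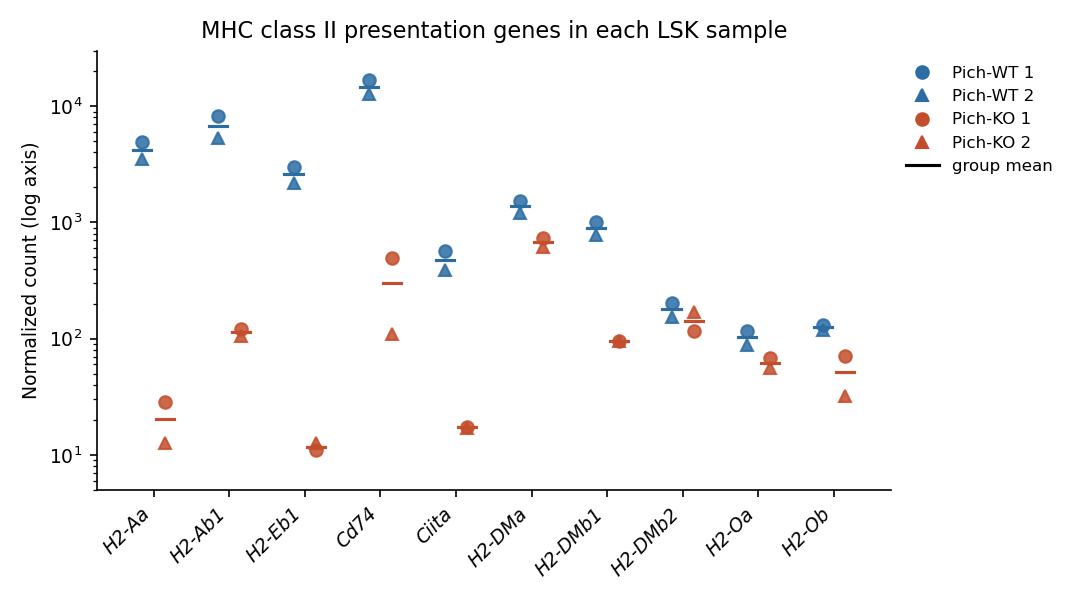
Normalized count (log axis) of the 10 genes in each sample, with circles for sample 1, triangles for sample 2 and short lines for group means. *Pich*-KO points (orange) lie far under *Pich*-WT points (blue) for the class II chains, *Cd74* and *Ciita*, close to them for *H2-DMa*, *H2-Oa* and *H2-Ob*, and among them for *H2-DMb2*, where *Pich*-KO had 117 and 169 and *Pich*-WT had 204 and 154.

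In numbers, 8 of the 10 genes were called lower in *Pich*-KO at an adjusted p under 0.05 in the limma fit over all genes and 0 were called higher, where the background was 9.60% of all genes tested called lower and 7.58% called higher. The 2 not called were *H2-DMb2* and *H2-Oa*. Both *Pich*-KO values were under both *Pich*-WT values in 9 of the 10, against 27.2% of all genes. The median log2 difference of the 10 was -3.95. As the genes were listed with this comparison known, nothing is read from these counts. By size, 5 genes had *Pich*-WT means over 20-fold those of *Pich*-KO, 3 were between 2-fold and 20-fold, and *H2-DMb2* and *H2-Oa* were under 2-fold. The same fit without a variance trend called 0 genes of the whole table, and so did each fit without 1 of the 4 samples, which leaves 1 residual degree of freedom. Without *Pich*-WT sample 2, the one without Y-linked reads, the log2 differences of the 10 genes ran from -7.94 to -0.53. An exact permutation test of 2 samples against 2 cannot go below p = 0.333.

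The 10 genes together took 0.222% and 0.170% of all reads in *Pich*-WT samples 1 and 2 and 0.0106% and 0.00730% in *Pich*-KO samples 1 and 2. In *Pich*-WT all 10 were higher in sample 1 than in sample 2, by 1.10-fold to 1.55-fold with a median of 1.33-fold. In *Pich*-KO 8 of the 10 were higher in sample 1, with ratios of sample 1 to sample 2 from 0.689 for *H2-DMb2* to 4.53 for *Cd74* and a median of 1.17. The 2 higher in *Pich*-KO sample 2 were *H2-DMb2* and *H2-Eb1*.

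Levels of different genes were compared as normalized counts per kilobase of exon. In *Pich*-WT, *Cd74* stood highest at 10403 ± 2035 per kb (SD, n = 2), followed by *H2-Ab1* at 4132 ± 1260 and by *H2-Aa* and *H2-Eb1* at 2239 ± 516 and 2196 ± 494, which overlapped. *H2-DMa* at 835 ± 133, *H2-DMb1* at 606 ± 109, *H2-DMb2* at 105 ± 20.7 and *H2-Oa* at 78.1 ± 15.7 came next, each apart from its neighbour. *Ciita* at 49.9 ± 12.9 and *H2-Ob* at 39.6 ± 2.58 overlapped at the bottom.

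The order in *Pich*-KO was another. *H2-DMa* stood highest at 412 ± 54.2 per kb, apart from *Cd74* at 214 ± 193. *H2-DMb2* at 83.6 ± 21.8, *H2-Ab1* at 68.9 ± 6.16 and *H2-DMb1* at 64.1 ± 0.78 came after *Cd74*, each overlapping with the one before it. *H2-Oa* at 46.9 ± 6.42 stood apart, *H2-Ob* at 16.3 ± 8.76, *H2-Aa* at 10.9 ± 5.98 and *H2-Eb1* at 9.89 ± 0.95 overlapped in turn, and *Ciita* was last at 1.81 ± 0.03. *Cd74* made up 49.5% and 51.4% of the summed per-kb level of the 10 genes in *Pich*-WT samples 1 and 2, and 31.7% and 10.3% in *Pich*-KO samples 1 and 2. *H2-DMa* went the other way, from 3.88% and 4.25% in *Pich*-WT to 40.7% and 49.8% in *Pich*-KO.

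**Figure D2:**
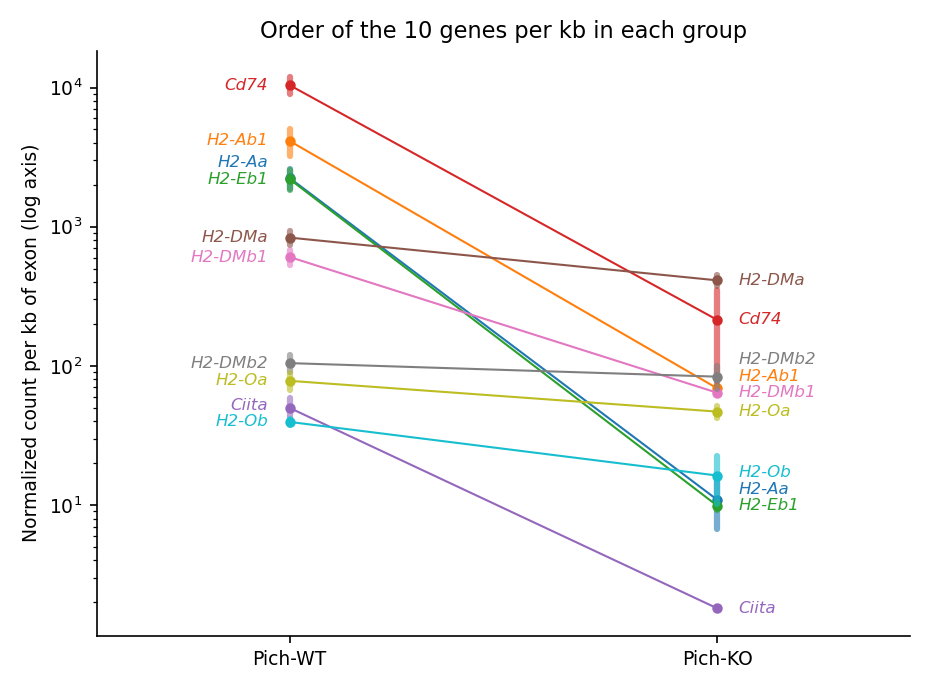
Normalized count per kb of exon (log axis) of each gene in *Pich*-WT (left) and *Pich*-KO (right), with dots for the means, thick bars from one sample to the other and a line joining the means. *Cd74* is at the top in *Pich*-WT at 10403 and *H2-DMa* in *Pich*-KO at 412, and the lines of *H2-Aa*, *H2-Eb1*, *H2-Ab1*, *Cd74* and *Ciita* are steep while those of *H2-DMa*, *H2-DMb2* and *H2-Oa* are nearly flat.

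Ratios of per-kb levels within a sample do not depend on how samples were scaled against each other. *H2-Aa* to *H2-Ab1*, the 2 chains of I-A, was 0.518 and 0.578 in *Pich*-WT samples 1 and 2 and 0.206 and 0.103 in *Pich*-KO samples 1 and 2, so the transcripts of the pair were less even in the mutant libraries. *H2-Eb1* to *H2-Ab1* was 0.507 and 0.570 in *Pich*-WT and 0.126 and 0.164 in *Pich*-KO. *Cd74* to *H2-Ab1* was 2.36 and 2.77 in *Pich*-WT, and 4.78 and 1.20 in *Pich*-KO, where the samples lay on either side of both *Pich*-WT values. *H2-DMb1* to *H2-DMb2* was 5.73 and 5.87 in *Pich*-WT and 0.947 and 0.641 in *Pich*-KO, within the limit on these copies given above. *H2-DMa* to *H2-Oa* was 10.4 and 11.1 in *Pich*-WT and 8.74 and 8.81 in *Pich*-KO, and *H2-Ob* to *H2-Oa* was 0.464 and 0.564 in *Pich*-WT and 0.437 and 0.238 in *Pich*-KO.

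Of the 10 genes, 8 lie in one stretch of chromosome 17, from 34092340 to 34316199 on GRCm38, whose first and last genes begin 214 kb apart. The deposited table has 17 genes starting in this stretch, so 9 are not class II presentation genes, and 5 of these are protein-coding and passed the filter. *Psmb9* and *Psmb8*, subunits of the immunoproteasome, and *Tap1*, a subunit of the transporter that carries peptides to class I molecules, were higher in *Pich*-KO. Their log2 differences were 0.68, 0.79 and 1.06. *Tap1* had 4759 and 3486 in *Pich*-KO against 1846 and 2055 in *Pich*-WT. *Brd2*, a reader of acetylated chromatin, was also higher (log2 difference 0.34, limma, Benjamini-Hochberg adjusted p = 0.0258), and *Tap2*, the partner of *Tap1*, had a log2 difference of 0.38 and did not pass (adjusted p = 0.0851). Of the 9 neighbours 4 were called higher, 0 lower and 2 were not tested. The negative differences of the class II genes were thus not shared by the 5 tested coding genes between them.

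**Figure D3:**
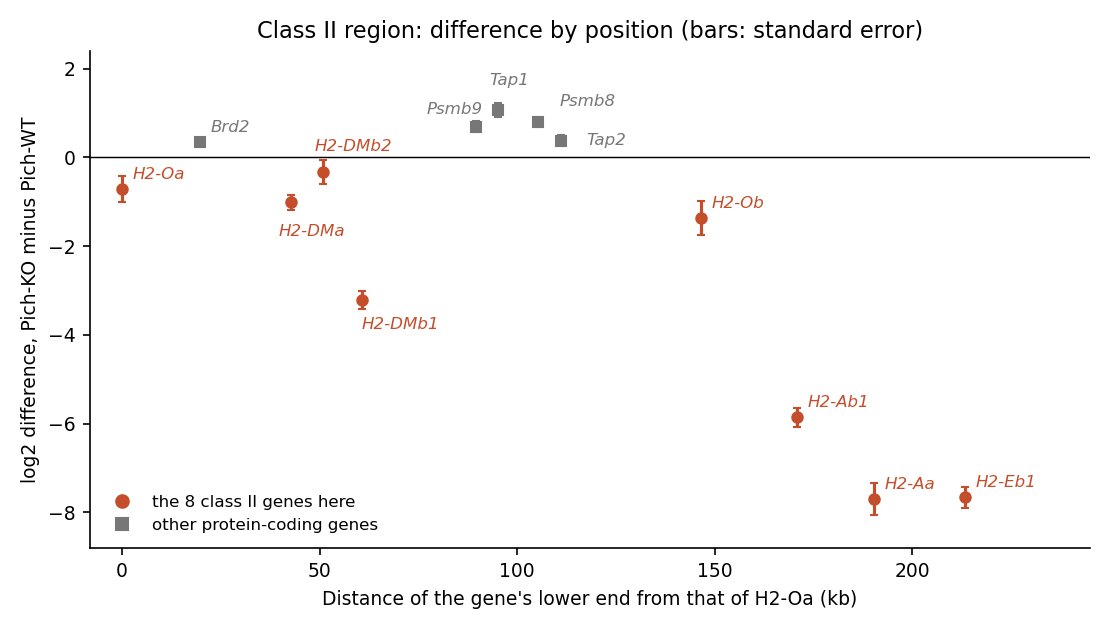
Log2 difference, *Pich*-KO minus *Pich*-WT, with its standard error against the distance in kb of each gene's lower end from that of *H2-Oa*. The 8 class II genes (orange circles) lie under 0, down to -7.70 for *H2-Aa*, and the 5 other protein-coding genes (grey squares) lie above 0, up to 1.06 for *Tap1*.

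The factors that assemble on class II promoters did not share the low levels of *Ciita*. Of 13 such genes 2 were higher in *Pich*-KO, 1 was lower and 10 did not pass the test, with a median log2 difference of 0.08. Of all genes tested 7.58% were called higher and 9.60% lower, which is the background for this and every later list. The lists too were chosen with earlier results known, so their counts are a description. *Creb1*, which binds within the X box region, had 912 and 847 in *Pich*-KO against 422 and 370 in *Pich*-WT (log2 difference 1.15, standard error 0.15, limma, Benjamini-Hochberg adjusted p = 0.00153). *Rfxap*, a subunit of the RFX complex on the X box, had 275 and 258 in *Pich*-KO against 678 and 560 in *Pich*-WT (log2 difference -1.21, limma, adjusted p = 0.00232). The other RFX subunits *Rfx5* and *Rfxank*, the NF-Y subunits *Nfya*, *Nfyb* and *Nfyc*, and *Spi1*, *Spib*, *Irf1*, *Irf4* and *Irf8* did not pass. *Irf4* had the widest gap of these, with 61.1 and 20.5 against 132 and 90 (log2 difference -1.59, limma, adjusted p = 0.0683).

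The endosomal proteases and partners that act beside class II were lower. Of 14 genes 13 were lower in *Pich*-KO and 0 higher, with a median log2 difference of -1.56, and *Ctsc* did not pass. *Lgmn*, an asparaginyl endopeptidase, had 1633 and 1505 in *Pich*-KO against 14396 and 14686 in *Pich*-WT (log2 difference -3.21, standard error 0.09, limma, Benjamini-Hochberg adjusted p = 4.55e-06). *Cd81*, a tetraspanin, had the smallest difference past the threshold at -0.50, and *Ctss*, the cathepsin that makes the last cuts in the invariant chain in many antigen-presenting cells, had -1.61. Of 6 co-stimulatory molecules 3 were lower, 0 were higher and 3 did not pass, with *Cd86* at -2.47 and *Cd80* at -1.36. *Cd86* had 422 and 285 in *Pich*-KO against 1914 and 1943 in *Pich*-WT.

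Class I presentation, the other arm of antigen display, ran in the opposite direction. Of 15 genes 12 were higher in *Pich*-KO, 0 were lower and 3 did not pass, with a median log2 difference of 0.68. *H2-T23*, a nonclassical class I chain, had 2272 and 1369 in *Pich*-KO and 262 in both *Pich*-WT samples (log2 difference 2.75, standard error 0.23, limma, Benjamini-Hochberg adjusted p = 0.000203). *Pdia3*, a chaperone of class I assembly, had the smallest difference past the threshold at 0.29. *Nlrc5*, the relative of *Ciita* that serves class I promoters, had 1847 and 1458 in *Pich*-KO against 267 and 297 in *Pich*-WT (log2 difference 2.54, limma, adjusted p = 7.47e-05). Between the 2 coactivators the readings were therefore opposite, *Ciita* 27.6-fold higher in *Pich*-WT and *Nlrc5* 5.86-fold higher in *Pich*-KO on the means. *Tap1*, *Tap2*, *Psmb8* and *Psmb9* belong both to this list and to the chromosome 17 stretch.

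Markers of other cell types moved with the class II genes. Of 16 macrophage markers 15 were lower in *Pich*-KO and 0 higher, with a median log2 difference of -4.82. *Marco*, a scavenger receptor, had the widest gap at -7.22 and *Csf1r* the smallest past the threshold at -1.33, and *Fcgr1* did not pass. The summed normalized count of the 16 was 10644 and 9313 in *Pich*-KO against 62287 and 64305 in *Pich*-WT, 6.34-fold higher on the means, and none of the 16 was at 0 in every sample. *Csf1r* alone held 7268 and 6111 of the *Pich*-KO sums and 16306 and 17259 of the *Pich*-WT sums, so the fold of the sums leans on it. In bulk RNA a smaller number of cells of a type and less RNA per cell cannot be told apart. The part of macrophages in the class II readings was not tested.

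Of 11 dendritic cell markers 10 were tested, and 6 of these were lower, 0 higher and 4 did not pass, with a median log2 difference of -2.24. *Cd209a* had the widest gap, 6.54 and 2.27 in *Pich*-KO against 151 and 144 in *Pich*-WT (log2 difference -4.90, limma, Benjamini-Hochberg adjusted p = 0.000428). *Zbtb46*, a factor of conventional dendritic cells, had the smallest past the threshold at -2.09, and *Klk1* was under the filter. The summed normalized count of the list was 1972 and 1580 in *Pich*-KO against 3875 and 3342 in *Pich*-WT, 2.03-fold apart on the means. *Wdfy4*, which did not pass, held 1273 and 1231 of the *Pich*-KO sums and 1310 and 1240 of the *Pich*-WT sums. The fold of the sums therefore leans on this gene and does not describe the other markers. Of the 11 markers 9 had more in *Pich*-KO sample 1 than in *Pich*-KO sample 2, and *Xcr1* and *Clec10a* had less. The part of dendritic cells in these readings was not tested.

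B-lineage markers were less one-sided, with 3 of 13 lower, 0 higher and 10 not past the threshold, and a median log2 difference of -0.75. The shares over all genes tested were 9.60% lower and 7.58% higher. *Fcrla* was the lowest at -3.88 and *Cd22* the smallest past the threshold at -1.45. Their summed normalized count was 1733 and 2715 in *Pich*-KO against 3570 and 3328 in *Pich*-WT. Of the 13 markers 5 had more in *Pich*-KO sample 1 and 8 had more in *Pich*-KO sample 2. The part of B-lineage cells in these readings was not tested.

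The markers of the sorted population itself were present in every sample. Of 12 LSK markers 5 were lower, 1 was higher and 6 did not pass, with a median log2 difference of -0.55 and summed normalized counts of 30299.6 and 20019 in *Pich*-KO against 25720 and 27386 in *Pich*-WT. *Kit*, the receptor used in the gate, had 4447 and 2772 in *Pich*-KO against 2328 and 2513 in *Pich*-WT and did not pass. *Ly6a*, which encodes the Sca-1 of the gate, was higher in *Pich*-KO (log2 difference 1.74, limma, Benjamini-Hochberg adjusted p = 0.000167). *Procr*, a marker of stem cells, was lower, at 76.3 and 38.6 against 362 and 460 (log2 difference -2.88).

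**Figure D4:**
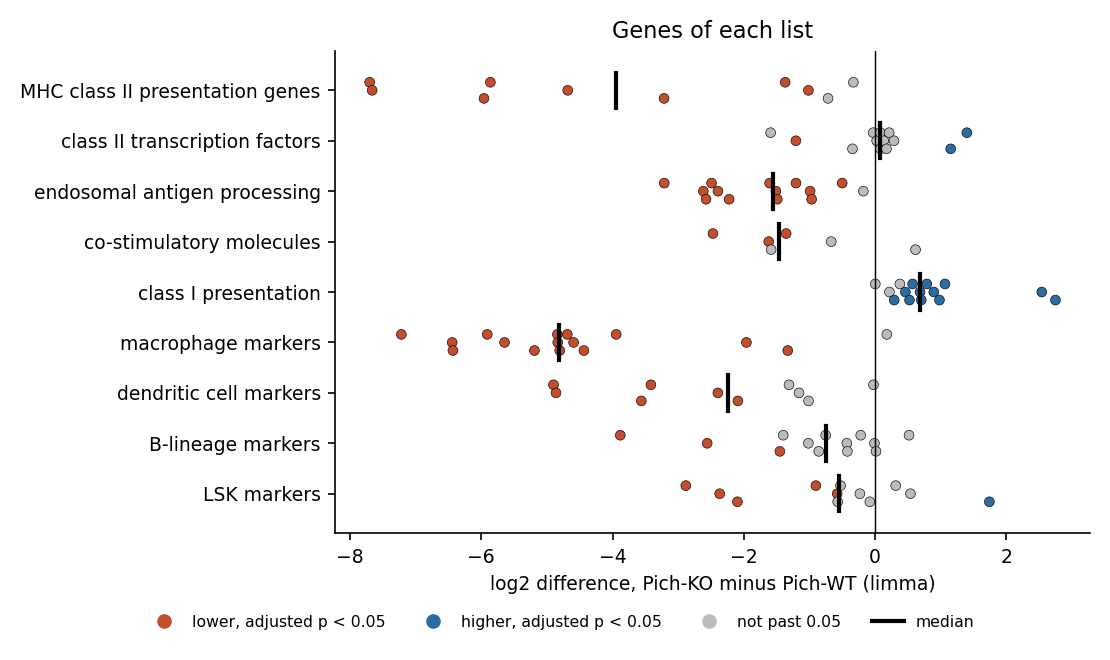
Log2 difference, *Pich*-KO minus *Pich*-WT, of each tested gene of each list (horizontal axis), with orange for lower and blue for higher at an adjusted p under 0.05, grey for not past it and a black bar for the list's median. The class II presentation genes, with a median of -3.95, spread from -7.70 to -0.33, the macrophage markers have a median of -4.82, and the class I genes lie at or above 0.

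The profile of the 10 genes over the 4 samples, taken as the mean of their centred log2 values, was compared with that of 16270 genes with a mean of at least 10. The profile was -1.70 and -2.15 in *Pich*-KO samples 1 and 2 and 2.13 and 1.72 in *Pich*-WT samples 1 and 2. The 5 genes at the smallest root mean square distance were *Cyr61* at 0.0354, *Bgn* at 0.0362, *Smagp* at 0.0810, *Klhl4* at 0.0858 and *Snx22* at 0.0903 log2 units. *Cyr61*, a matricellular protein, had 82.9 and 60.2 in *Pich*-KO against 1136 and 910 in *Pich*-WT, and *Bgn*, the proteoglycan biglycan, had 14.2 and 10.2 against 216 and 153. The profile averages genes whose log2 differences ran from -7.70 for *H2-Aa* to -0.33 for *H2-DMb2*. A gene close to this average need not be close to any single class II gene. With 4 samples this likeness is a description only.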

How the data were processed

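Libraries of sorted fetal liver LSK cells, 2 per genotype, were made with a kit that does not mark strand. The submitters' processing notes name Bowtie 0.12.2, mm8 and mm9 with no role. The aligner settings and counter are not given in the sources used here. Gene positions matched GENCODE M21 on GRCm38 for 97.8% of 39163 genes found there. The authors deposited a normalized signal per gene, read counts divided by 1 size factor per sample. Values were whole multiples of 1 read in 100% of cases (tolerance 0.001 reads), which gave back the reads. The table's own log2 fold changes and p-values, made by the authors, were not used.

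log2(value + 1) was fitted by limma with a variance trend over the 32428 genes whose mean reached 1, with Benjamini-Hochberg adjustment and a threshold of 0.05. The code was first run on simulated counts whose spread was fixed in advance and not taken from these replicates. That run does not give the error rate in these data. Alternatives were a pseudocount of 0.1, no filter, at least 10 reads in every sample, no variance trend, edgeR with TMM and DESeq2 on the recovered reads, a replicate block, and leaving out each sample. The members and lists were chosen with earlier results of these data known. Named were all 10 members, in each list the genes with the largest and smallest difference past the threshold and any at 0 in all samples, tested coding neighbours in the chromosome 17 stretch, and the 5 closest profiles. Other genes were named after their values were seen, and the values of some list genes are not reported here. Promoter sequences are from RefSeq (GRCm38.p6), which was matched by symbol. The tools were DESeq2 1.42.0, edgeR 4.0.16 and limma 3.58.1, in R 4.3.3.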

Additional observations from a re-analysis of the deposited data

How the results depend on the processing

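The log2 difference of each of the 10 class II genes stayed negative in all 11 alternatives. All 8 calls lower held with edgeR, with DESeq2, with a replicate block and with at least 10 reads in every sample, and 7 held with a pseudocount of 0.1 and without the filter, where *H2-Ob* was lost. Without a variance trend 0 genes were called higher and 0 lower of the whole table, against 2459 and 3113, with 7377 at an unadjusted p under 0.05, so 0 members and 0 genes of every list were called. Leaving out any 1 of the 4 samples, which leaves 1 residual degree of freedom and a lone sample assumed to vary like the other group, also gave 0 higher and 0 lower, with 5757 to 8599 at an unadjusted p under 0.05, and 0 calls for the members and for every list. The median of the 10 genes ranged over these 4 fits from -4.17 to -3.72. *H2-Ob* had -1.94 without *Pich*-KO sample 1 and -0.81 without *Pich*-KO sample 2, *H2-Aa* -8.26 and -7.14, and *H2-DMb2* -0.07 and -0.60.

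For the lists, class II transcription factors called lower numbered 2 in place of 1 with at least 10 reads, edgeR, DESeq2 and the replicate block. LSK markers called lower numbered 3 without the filter, and those called higher numbered 2 with edgeR, DESeq2 and the block. Dendritic cell markers called lower numbered 3 with at least 10 reads, where fewer genes are tested. The cause of the other shifts was not tested. The correlation of same-numbered deviations was 0.013 over 10544 genes, which cannot show whether same-numbered samples shared a batch. The replicate block gave 3122 genes higher and 3874 lower, against 2459 and 3113 without it. Depth limits the *Pich*-KO values of *H2-Aa*, *H2-Eb1* and *Ciita*, which rest on 10 to 26 reads a sample.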
